A study of Drosophila melanogaster with 32 samples.

Results

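The change in ribosome immunoprecipitation (IP) enrichment between ato mutant and wild-type brains was measured for each gene as an interaction: the log2 ratio of IP to input in ato minus the same ratio in wild type. Counts of 32 sequencing runs were summed to 8 libraries, and each IP was paired with the input of the same genotype and replicate number. Of 14161 genes in the count table, 10224 had enough counts to be tested, and all of these are described here. A negative interaction says that the IP stood less far above its own input in ato than in wild type, whichever of the 4 groups had moved.

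Brains were dissected from Drosophila melanogaster larvae of instar 3, with 500 larvae per preparation. A 10% share of each homogenate became the input, which samples the whole brain, and the remainder was precipitated with antibodies to GFP. Wild-type preparations had the genotype ipcGal4, UASRpl10Ab::GFP, so the controls too carried the driver and the GFP-tagged ribosomal protein. The ato preparations had the genotype ipcGal4, UASRpl10Ab::GFP; ato1, labelled as a loss of function of ato. Each genotype had 2 preparations, and each preparation gave 1 input and 1 IP library of 7780123 to 12238648 counts. A count of 3 corresponded to 0.245 to 0.405 CPM (the count scaled by TMM factors to a common library size). Beyond the replicate number, the labels do not say how the replicates were raised, so p-values measure the spread between these preparations, here as fitted across all genes and not for each gene.

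Atonal is a proneural basic helix-loop-helix transcription factor that acts in sense organ precursors, the eye and the inner proliferation center of the larval optic lobe. That center gives rise to T4 and T5 neurons, the direction-selective motion detectors of the fly visual system. In ribosome tagging, a driver expresses a tagged ribosomal protein in chosen cells, and the RNA pulled down with the tag is compared with the RNA of the whole tissue. A ratio of IP to input therefore depends both on the tagged cells and on every other cell in the brain.

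The cells named by the labels were checked first. All 6 T4/T5 marker genes were detected in every library. Their summed level was 509 and 488 CPM in the wild-type inputs and 770 and 752 in the wild-type IPs. In ato, the same sum was 407 and 350 CPM in the inputs and 592 and 471 in the IPs. The rise from wild-type input to IP was not particular to these markers. For 5 neuronal markers the sum went from 1091 and 1238 to 1645 and 1861 CPM. For 6 muscle markers it went from 69.3 and 82.7 to 629 and 466, and for 4 neuroblast markers from 286 and 287 to 259 and 233. AP-2 alone of the T4/T5 markers was lower in the wild-type IPs (77.9 and 67.5 CPM) than in the inputs (99.4 and 85.9). Among 8 identity factors of T4/T5 neurons, none passed the test. Both ato preparations lay below both wild-type preparations for 4 (ato, acj6, dac and grn), or 50.0%, beside 18.4% of all genes tested. The gap was narrow for dac, between a wild-type ratio of 0.88 and an ato ratio of 0.86, and for grn, between 0.92 and 0.90. The median interaction of the 8 was -0.13, beside -0.04 over all genes tested, and it stayed between -0.17 and -0.003 in 15 settings of the processing.

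For dac, which encodes a nuclear co-factor, the log2 ratio of IP to input was 1.11 and 0.88 in the wild-type preparations and 0.83 and 0.86 in ato. The GATA factor gene grn had ratios of 0.92 and 1.43 in wild type and 0.57 and 0.90 in ato. Their fitted interactions were -0.15 ± 0.28 and -0.44 ± 0.34 (log2, SE), neither of which passed (adjusted p = 1.0 for both by edgeR's quasi-likelihood test). For both genes the levels differed between genotypes in input and IP alike: the log2 difference of ato from wild type was -0.95 in the inputs and -1.10 in the IPs for dac, and -1.11 and -1.56 for grn. These differences come from the libraries that also make the interaction. The T-box factor gene bi (1.05 and 1.05 in wild type, 1.21 and 0.68 in ato), SoxN (0.28 and 0.30, 0.29 and 0.31) and AP-2 (-0.35 and -0.35, -0.32 and -0.38) had overlapping ratios. So did the Sox factor gene Sox102F, which had the smallest p of the 8, with ratios of 0.30 and 0.04 in wild type and 1.18 and 0.17 in ato and an interaction of 0.50 ± 0.30 (edgeR adjusted p = 1.0).

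The ato gene itself was counted at 12.9 and 12.8 CPM in the wild-type inputs, 15.6 and 15.1 in the ato inputs, 12.7 and 17.2 in the wild-type IPs and 13.2 and 11.1 in the ato IPs. Both ato inputs lay above both wild-type inputs while the IPs overlapped, and the interaction was -0.54 ± 0.47 (edgeR adjusted p = 1.0). No source used here says that the ato1 allele removes the transcript, so these counts do not check the labels. RpL10Ab, whose product carries the tag, had log2 ratios of 0.13 and 0.93 in wild type and 0.07 and 0.72 in ato, with an interaction of -0.14 ± 0.28 that was 0.03 once a trend on exon length was removed.

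Across the tested genes, enrichment in one genotype followed enrichment in the other, and few genes departed from it beyond the replicate error. By edgeR's quasi-likelihood test with the preparation as a block and Benjamini-Hochberg adjustment, IP enrichment fell in ato for 10 of 10224 genes (0.0978%) and rose for none (0%). At an unadjusted p below 0.05, 348 genes (3.4%) read lower and 152 (1.49%) higher, 500 in all (4.89%). That share is no larger than such a threshold passes when no gene differs, so these counts do not show changed genes. DESeq2 and limma-voom also called no gene higher, and they called 1 and 0 genes lower. The median standard error of an interaction was 0.36, and changes of that size were not detectable at this depth and number of preparations.

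**Figure D1:**
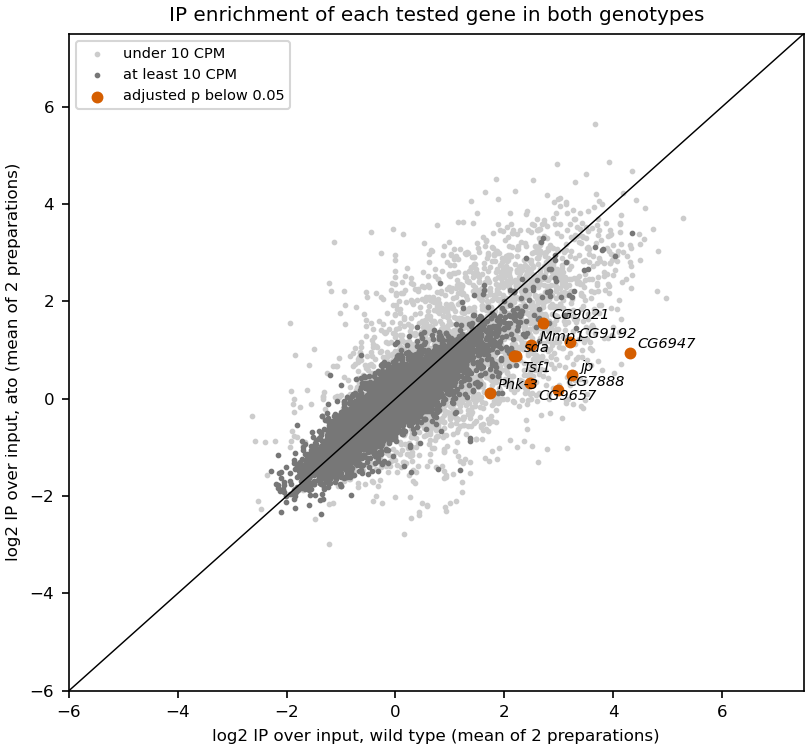
Log2 IP over input of each tested gene in wild type (x axis) and in ato (y axis), each the mean of 2 preparations, with the line of equal enrichment. The 10 genes with an adjusted p below 0.05 are orange and all lie below the line; genes of at least 10 CPM are dark grey and the others light grey.

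The set of called genes changed with the preparations and settings used. Without the preparation block no gene was called in either direction, and with a trend on exon length removed from each library 9 genes were called higher and 19 lower, among them 9 of the 10. Leaving out ato preparation 2 left no call, leaving out ato preparation 1 left 1 lower, leaving out wild-type preparation 1 gave 2 higher and 16 lower, and leaving out wild-type preparation 2 gave 7 lower. All 10 genes kept a negative interaction under each of the 14 alternatives, while none of them was called under all. The alternatives reuse the counts from which these genes were picked, so the kept sign is not independent support.

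Among the 10 genes, levels followed either of 2 courses. For CG9192, Mmp1 and CG9021, the input levels of the genotypes overlapped while both ato IPs lay below both wild-type IPs. For CG7888, CG9657, CG6947, Tsf1, sda, jp and Phk-3, both ato inputs lay above both wild-type inputs, and the IPs did not differ to the same extent. In bulk libraries such as these, fewer cells of a type and less RNA per cell cannot be told apart. This division was made after the values were seen and was not tested.

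CG9192, on chromosome 3L at positions 1237133 to 1238313 of the minus strand (dm3 here and below), stood at 5.56 and 17.5 CPM in the wild-type inputs and 13.8 and 9.39 in the ato inputs. Its IPs held 67.0 and 128 CPM in wild type and 41.2 and 16.1 in ato. The wild-type IPs were thus the highest libraries and the second ato IP was near its own input. Log2 ratios were 3.54 and 2.86 in wild type and 1.56 and 0.77 in ato, and the interaction fell by 2.01 ± 0.36 (edgeR adjusted p = 0.00033). 

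Mmp1, which encodes a matrix metalloproteinase that cleaves extracellular matrix, lies on chromosome 2R from 20558817 to 20575704 on the minus strand. It stood at 31.6 and 52.3 CPM in the wild-type inputs, 59.8 and 33.2 in the ato inputs, 185 and 284 in the wild-type IPs and 145 and 64.1 in the ato IPs. Its log2 ratios were the most even within a genotype among these genes of overlapping input, at 2.54 and 2.44 in wild type and 1.28 and 0.94 in ato. The interaction of -1.38 ± 0.28 (edgeR adjusted p = 0.00217) was the only one of the 10 called by DESeq2 as well, but it passed in no fit that left out a preparation.

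CG9021 (2L, 5903359 to 5904674, minus strand) had the highest level of the 10. It reached 616 and 1416 CPM in the wild-type IPs and 517 and 195 in the ato IPs, over inputs of 74.5 and 269.5 CPM in wild type and 122 and 95.2 in ato. The wild-type preparations differed widely from each other in input and IP, and their ratios, 3.04 and 2.39, still lay above the ato ratios of 2.08 and 1.03. Its interaction was -1.15 ± 0.26 (edgeR adjusted p = 0.0183), and -0.62 without ato preparation 2.

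**Figure D2:**
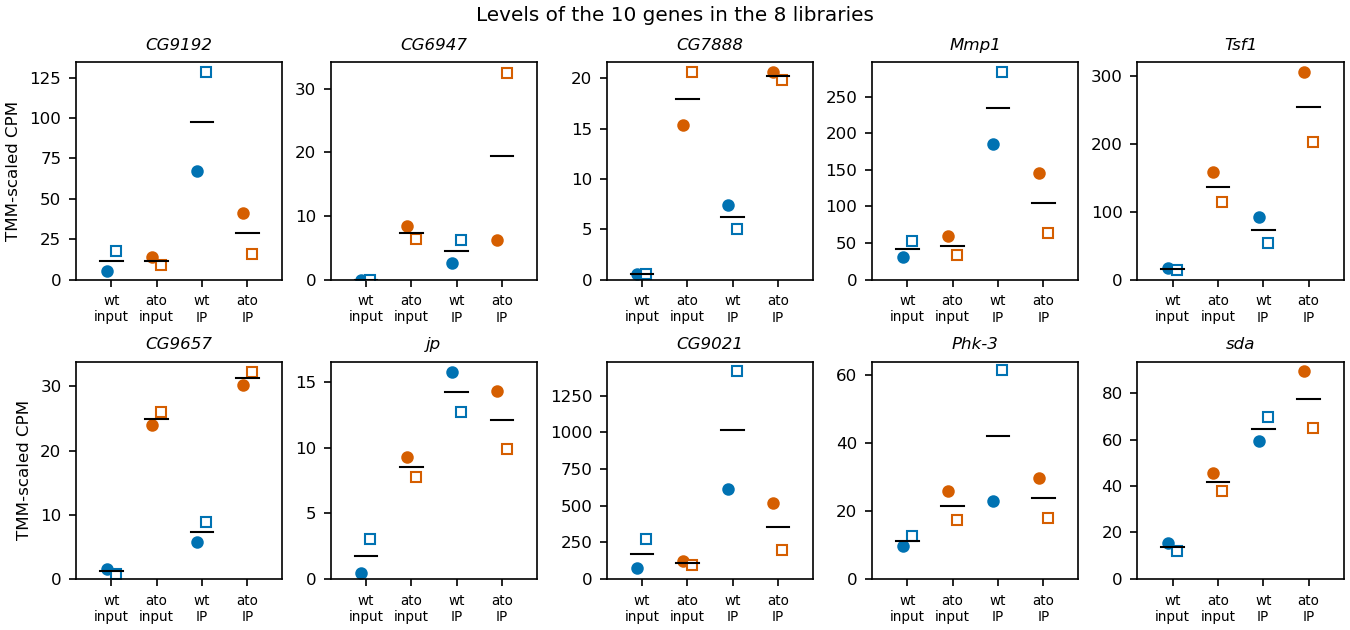
TMM-scaled CPM (y axes, from 0) of the 10 genes with lower IP enrichment in ato, in each of the 8 libraries grouped as wild-type and ato inputs and IPs (x axes); filled circles are preparation 1, open squares preparation 2, and bars group means. CG9192, Mmp1 and CG9021 had overlapping inputs and lower ato IPs, whereas in the other 7 panels both ato inputs lay above both wild-type inputs.

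CG7888, a member of the amino acid transporter family (3L, 11047137 to 11052759, plus strand), was nearly absent from the wild-type inputs, at 0.572 and 0.586 CPM, and stood at 15.3 and 20.6 CPM in the ato inputs. The IPs held 7.43 and 5.0 CPM in wild type and 20.6 and 19.9 in ato. In ato the IP level thus equalled the input level to within the spread of the preparations, with log2 ratios of 0.42 and -0.05 against 3.27 and 2.70 in wild type. The interaction was -3.21 ± 0.65 (edgeR adjusted p = 0.000908). CG6321, an overlapping gene, shares 9.1% of its exon bases.

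CG9657, now named rumpel, is a glial transporter of the sodium-coupled solute carrier family (X, 7312628 to 7315672, plus strand). It stood at 1.55 and 0.782 CPM in the wild-type inputs and 23.9 and 25.9 in the ato inputs, and at 5.73 and 8.92 CPM in the wild-type IPs and 30.2 and 32.3 in the ato IPs. Neither the inputs nor the IPs overlapped between genotypes. The log2 ratios of 1.75 and 3.19 in wild type and 0.33 and 0.31 in ato gave an interaction of -2.25 ± 0.51 (edgeR adjusted p = 0.0143). It was -1.55 without wild-type preparation 2 and -3.16 without wild-type preparation 1. The summed level of 6 glial markers was 653 and 573 CPM in the wild-type inputs and 1214 and 1390 in the ato inputs, and the part of glia in this result was not tested.

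Tsf1 encodes transferrin, an iron-binding protein secreted into the hemolymph (X, 18281965 to 18284377, plus strand). Its levels were 16.8 and 14.2 CPM in the wild-type inputs, 158 and 115 in the ato inputs, 92.3 and 54.3 in the wild-type IPs and 306 and 203 in the ato IPs. Both inputs and IPs were higher in ato without overlap, the inputs by 3.11 and the IPs by 1.81 on the log2 scale. The IP remained above its input in all 4 preparations, at log2 ratios of 2.44 and 1.92 in wild type and 0.95 and 0.82 in ato. The interaction was -1.32 ± 0.28 (edgeR adjusted p = 0.00544). Summed over 5 fat body markers, the inputs held 124 and 49.6 CPM in wild type and 228 and 138 in ato, and the part of this tissue was not tested.

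The aminopeptidase gene sda (slamdance), whose mutants are prone to seizures, lies on 3R from 22741455 to 22771033 on the plus strand. It had 15.4 and 12.2 CPM in the wild-type inputs, 45.5 and 37.9 in the ato inputs, 59.3 and 69.7 in the wild-type IPs and 89.7 and 64.8 in the ato IPs. The inputs were separate and the IPs overlapped. With log2 ratios of 1.93 and 2.49 against 0.97 and 0.77, the interaction was -1.35 ± 0.32 (edgeR adjusted p = 0.0341).

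The junctophilin gene jp, whose product joins the plasma membrane to internal calcium stores in muscle and neurons, lies on 2L from 9547720 to 9566750 on the minus strand. Its inputs held 0.491 and 3.03 CPM in wild type and 9.31 and 7.78 in ato, and its IPs 15.8 and 12.7 in wild type and 14.4 and 9.94 in ato. The IPs overlapped between genotypes and the inputs did not. The log2 ratio of wild-type preparation 1 (4.50) stood far above that of preparation 2 (1.99), against 0.61 and 0.34 in ato, and the interaction was -2.74 ± 0.61 (edgeR adjusted p = 0.0153). It was -1.57 without wild-type preparation 1 and -4.49 without wild-type preparation 2. The summed level of muscle markers was likewise higher in the ato inputs, though not that of sls, as given with the muscle genes.

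Phk-3, a pherokine gene that encodes a small secreted protein of the chemosensory protein family (2R, 20858366 to 20859365, minus strand), held 9.81 and 12.6 CPM in the wild-type inputs and 25.8 and 17.4 in the ato inputs. Its IPs held 22.8 and 61.4 CPM in wild type and 29.7 and 17.9 in ato, and these overlapped. The ato ratios of 0.20 and 0.04 lay near 0, below 1.20 and 2.26 in wild type, and the interaction of -1.64 ± 0.38 (edgeR adjusted p = 0.0265) was -1.10 without wild-type preparation 2 and -2.16 without wild-type preparation 1. With a trend on exon length removed it was -1.25 and no longer passed (edgeR adjusted p = 0.0934).

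CG6947, now CG43896 (3L, 11969214 to 11974030, plus strand), had no count in either wild-type input. It stood at 8.43 and 6.36 CPM in the ato inputs, 2.65 and 6.22 in the wild-type IPs and 6.26 and 32.5 in the ato IPs. The ato preparations differed widely, with log2 ratios of -0.42 and 2.32 against 3.72 and 4.88 in wild type. Against a floor of 3 counts summed over both wild-type inputs, its IP enrichment was at least 11.9-fold lower in ato (edgeR adjusted p = 0.000438). Whether both ends of a fragment were counted is not known; if they were, such a floor stands for fewer fragments and the bound is too high.

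**Figure D3:**
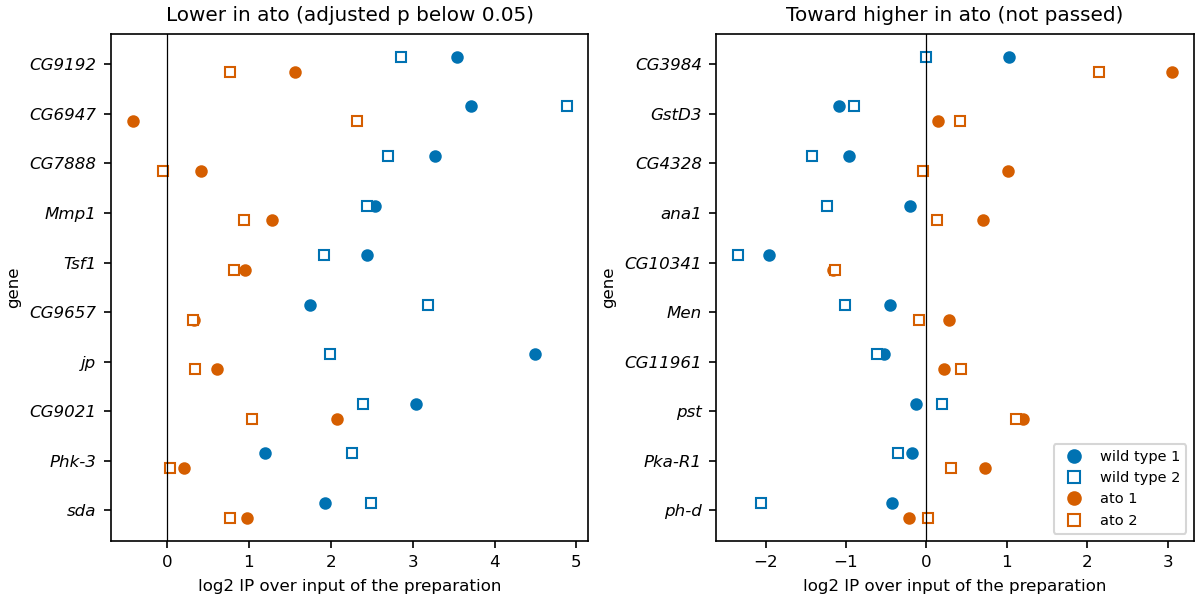
Log2 IP over input of each of the 4 preparations (x axes) for the 10 genes that fell (left) and for the 10 genes of at least 10 CPM in a group with the smallest unadjusted p in the other direction, none of which passed (right); blue is wild type, orange ato, filled circles preparation 1 and open squares preparation 2. In every row the 2 ato preparations lie on one side of the 2 wild-type preparations, which the rule for naming these genes required.

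In the direction of higher enrichment in ato, the 10 genes of smallest p among those of at least 10 CPM in a group did not pass (edgeR adjusted p from 0.132 to 0.484). With a trend on exon length removed, CG3984, GstD3, CG4328, ana1, CG10341, Men and Pka-R1 did (edgeR adjusted p from 0.000659 to 0.0441), and without wild-type preparation 1, ana1 and ph-d did. GstD3, a glutathione S-transferase that detoxifies xenobiotics, was the clearest case among those with counts in every group. It stood at 33.7 and 30.7 CPM in the wild-type inputs, 43.2 and 39.5 in the ato inputs, 15.7 and 16.4 in the wild-type IPs and 47.9 and 52.7 in the ato IPs. The IPs lay below their inputs in wild type, at log2 ratios of -1.09 and -0.90, and above them in ato, at 0.15 and 0.41. The interaction was 1.29 ± 0.35 (edgeR adjusted p = 0.151), and 1.54 with a trend on exon length removed.

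Men, which encodes malic enzyme and supplies NADPH, had a similar course at a higher level. It was counted at 206 and 208 CPM in the wild-type inputs, 395 and 504 in the ato inputs, 151 and 103 in the wild-type IPs and 479 and 475 in the ato IPs, and its interaction was 0.83 ± 0.26 (edgeR adjusted p = 0.388). For Pka-R1, a regulatory subunit of protein kinase A, both kinds of library were lower in ato, the inputs (267 and 291 against 84.7 and 110 CPM) more so than the IPs (235 and 228 against 141 and 136 CPM), with an interaction of 0.79 ± 0.26 (edgeR adjusted p = 0.48). CG3984 had no count in either ato input, against 13.5 and 14.9 CPM in the wild-type inputs, and 1.59 and 0.745 CPM in the ato IPs. With the ato inputs at a floor of 3 counts, its ratio was 4.47-fold higher in ato (edgeR adjusted p = 0.132). This fold rested on 13 and 6 counts in the ato IPs, whose counting error it does not cover. The other 6 genes were CG4328 (1.70 ± 0.46), the centriole gene ana1 (1.12 ± 0.32), CG10341 (1.00 ± 0.32), CG11961 (0.91 ± 0.30), pst (1.14 ± 0.38) and the Polycomb group gene ph-d (1.12 ± 0.37), whose near-identical neighbour may share its reads.

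None of the 48 gene lists held a gene that passed the test, although GstD3, Mlp84B, TpnC73F and Nrx-1 passed once a trend on exon length was removed from each library. Their members are therefore described by the number for which both ato preparations lay above or below both wild-type preparations, which among all tested genes was 14.6% above and 18.4% below, and by the median interaction, which was -0.04 over all genes. Some genes stand in more than 1 list.

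**Figure D4:**
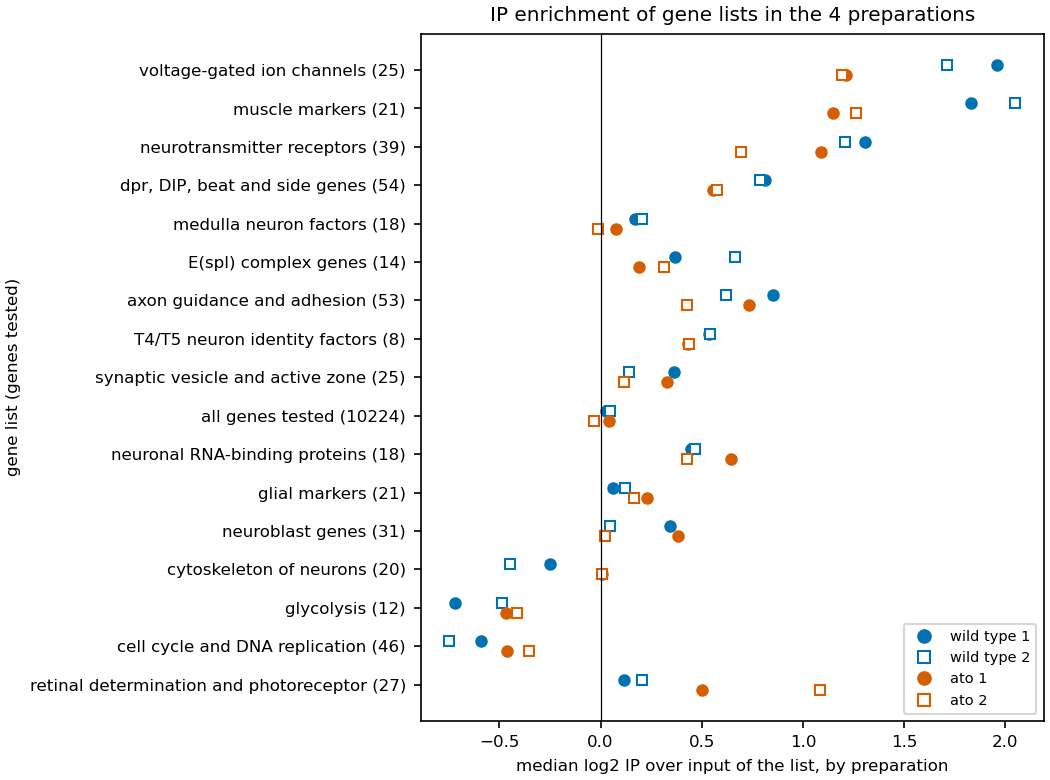
Median log2 IP over input of selected gene lists (rows, with the number of genes tested) in each of the 4 preparations (x axis); blue is wild type, orange ato, filled circles preparation 1 and open squares preparation 2. Ion channels, muscle markers and neurotransmitter receptors have both ato medians left of both wild-type medians, and cell cycle genes, neuronal cytoskeleton genes and retinal genes right of them.

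Among genes of neuronal excitability, a larger share lay below in ato than among all genes. The voltage-gated ion channels, which shape the firing of neurons, had median log2 ratios of 1.96 and 1.71 in the wild-type preparations and 1.21 and 1.19 in ato. Of 25 tested channel genes, 14 (56.0%) lay below in both ato preparations and 0 above, and their median interaction was -0.62 (-0.63 to -0.47 over the 15 settings). Their median log2 difference of ato from wild type was 0.48 in the inputs and -0.03 in the IPs. Thus the channel transcripts stood higher in the ato inputs while their IP level hardly differed in the median. Highly enriched genes of any kind also read lower in ato. The 200 most enriched genes of wild-type preparation 1 had a median ratio of 1.86 in wild-type preparation 2, and 1.52 and 1.25 in ato. Whether the excitability genes differ from other genes of like enrichment was not tested.

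The calcium-activated potassium channel gene slo had 4.09 and 5.67 CPM in the wild-type inputs, 13.1 and 15.5 in the ato inputs, 39.0 and 58.4 in the wild-type IPs and 61.6 and 61.6 in the ato IPs. Its log2 ratios were 3.19 and 3.31 in wild type and 2.22 and 1.97 in ato, with an interaction of -1.20 ± 0.38 (edgeR adjusted p = 0.387). Shab, a delayed rectifier potassium channel, had ratios of 2.37 and 2.81 against 1.05 and 1.92 and an interaction of -1.12 ± 0.37 (edgeR adjusted p = 0.484). Exons of other genes overlap 16.4% of its exon bases. CG42732 (-1.30 ± 0.51) had the lowest interaction of the list.

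Neurotransmitter receptors followed the same order, with 20 of 39 tested genes (51.3%) below, 2 above and a median interaction of -0.46 (-0.52 to -0.32 over the settings). Their median difference of ato from wild type was 0.46 in the inputs and -0.05 in the IPs. The nicotinic acetylcholine receptor subunit nAcRalpha-30D stood at 21.3 and 28.2 CPM in the wild-type inputs, 34.1 and 40.8 in the ato inputs, 110 and 186 in the wild-type IPs and 124 and 124 in the ato IPs, and its interaction was -0.82 ± 0.29 (edgeR adjusted p = 0.535). A further subunit, nAcRbeta-64B (-0.76 ± 0.33), and the metabotropic receptor GABA-B-R2 (-0.75 ± 0.31) were also without overlap between genotypes.

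Genes of the synaptic partner code and of guidance came next. Of 54 immunoglobulin genes of the dpr, DIP, beat and side families, 18 (33.3%) lay below and 2 above, with a median of -0.38 (-0.40 to -0.27). Among 53 axon guidance and adhesion genes, 16 (30.2%) lay below and 2 above, with a median of -0.17 (-0.25 to -0.04). Nrx-1, a presynaptic adhesion protein, had ratios of 1.39 and 1.28 in wild type and 0.53 and 0.28 in ato, and an interaction of -0.93 ± 0.30 (edgeR adjusted p = 0.396). The Slit receptor lea (-0.59 ± 0.28) and the teneurin Ten-a (-0.55 ± 0.27) were next by p.

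Of 25 synaptic vesicle and active zone genes, 8 (32%) lay below and 2 above, with a median of -0.08. The active zone scaffold brp had ratios of 1.62 and 1.06 in wild type and 0.74 and 0.43 in ato, and an interaction of -0.76 ± 0.35 (edgeR adjusted p = 0.968). Among genes of transmitter synthesis and transport, 3 of 16 lay below, with a median of -0.22; choline acetyltransferase, listed as Cha, had an interaction of -0.78 ± 0.35 (edgeR adjusted p = 0.943). Neuronal RNA-binding proteins had 5 of 18 below and a median of -0.05.

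Factors that pattern the optic lobe gave small medians. Of 18 medulla neuron factors, 7 (38.9%) lay below and 1 above, with a median of -0.28 (-0.29 to -0.22), led by the homeobox gene otp (ratios of 0.63 and 0.85 against -0.39 and -0.66, interaction -1.28 ± 0.45, edgeR adjusted p = 0.521). The E(spl) complex and related genes, targets of Notch signalling, had 6 of 14 (42.9%) below and 0 above, with a median of -0.27 (-0.52 to -0.08). HLHmgamma, a repressor of this complex, had ratios of 0.40 and 0.57 in wild type and 0.04 and -0.04 in ato and an interaction of -0.49 ± 0.27 (edgeR adjusted p = 1.0). For the other genes of the Notch pathway, 4 of 21 lay below, and their median of -0.03 was close to that of all genes; kuz, the protease that cleaves Notch, had -0.62 ± 0.27, and Notch itself (N) -0.46 ± 0.26.

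Among 9 tested proneural bHLH genes, 4 lay below and 1 above, with a median of -0.24 (-0.38 to -0.035). The neurogenin family gene tap was the most enriched of those named: it held 77.0 and 79.7 CPM in the wild-type inputs, 91.5 and 91.6 in the ato inputs, 642 and 493 in the wild-type IPs and 377 and 486 in the ato IPs. Its IPs stood several-fold above the inputs in all preparations, its ratios were 3.06 and 2.63 against 2.04 and 2.40, and its interaction was -0.62 ± 0.26 (edgeR adjusted p = 0.835). Inner proliferation center temporal factors (median -0.04), the EGF receptor pathway (-0.02), the Hedgehog pathway (0.07) and the Dpp and Wnt pathways (0.02) had medians close to that of all genes, and these changed sign among the settings.

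For sim, a bHLH-PAS factor listed with the lamina genes, the inputs were alike (6.13 and 6.16 CPM in wild type, 6.42 and 7.67 in ato), and the IPs held 17.5 and 14.2 CPM in wild type and 7.12 and 3.11 in ato. Its interaction of -1.91 ± 0.60 did not pass (edgeR adjusted p = 0.421). In the opposite direction, sens, a zinc finger factor of sense organ precursors that is also used in the eye, had 8.99 and 10.8 CPM in the wild-type inputs and 0.126 and 1.92 in the ato inputs, and 4.78 and 9.32 CPM in the wild-type IPs and 2.70 and 5.09 in the ato IPs. The inputs did not overlap and the IPs did, and the interaction was 2.71 ± 0.88 (edgeR adjusted p = 0.421). The ato inputs held 1 and 19 counts of this gene.

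Several markers of other tissues had different input levels in the 2 genotypes. Muscle markers had median ratios of 1.83 and 2.05 in wild type and 1.15 and 1.26 in ato, with 14 of 21 (66.7%) below, 2 above and a median interaction of -0.55 (-0.63 to -0.49). Their median difference of ato from wild type was 1.66 in the inputs and 1.07 in the IPs. The summed level of 6 defining muscle genes, all detected, was 69.3 and 82.7 CPM in the wild-type inputs, 263 and 150 in the ato inputs, 629 and 466 in the wild-type IPs and 1278 and 586 in the ato IPs. Of these genes, sls went the other way, with 37.5 and 53.7 CPM in the wild-type inputs and 26.5 and 29.9 in the ato inputs. All the others were higher in both ato inputs. Muscle transcripts were thus present in all libraries, and their part in the result for channels and for jp was not tested.

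Mlp84B, a LIM protein of the muscle Z-disc, had 1.06 and 1.27 CPM in the wild-type inputs, 16.1 and 6.97 in the ato inputs, 15.1 and 12.03 in the wild-type IPs and 52.1 and 16.5 in the ato IPs. Its ratios were 3.58 and 3.04 in wild type and 1.68 and 1.22 in ato, and its interaction of -2.05 ± 0.53 came closest to the threshold of any list member (edgeR adjusted p = 0.0671, and 0.0228 with a trend on exon length removed). Troponin C (TpnC73F, -1.12 ± 0.32) and muscle myosin heavy chain (Mhc, -1.16 ± 0.38) were also without overlap.

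Glial markers gave a median of -0.03, with 3 of 21 below and 1 above. In the median their transcripts were higher in ato in inputs and IPs (log2 difference 0.31 and 0.21). This did not hold for every member, as repo had a difference of 0.31 in the inputs and -0.26 in the IPs. Gs2, the glial glutamine synthetase, had ratios of 0.46 and 0.63 in wild type and 0.00 and -0.26 in ato, and an interaction of -0.67 ± 0.26 (edgeR adjusted p = 0.697). Hemocyte and basement membrane genes had 5 of 20 below (median -0.19) and fat body genes 3 of 10 (median -0.16). Genes of the retina stood on the other side, with 7 of 27 (25.9%) above, 2 below and a median of 0.33 (0.01 to 0.50). Summed over 6 eye markers, of which ninaE had no count in any input, the inputs held 169 and 156 CPM in wild type and 81.8 and 84.7 in ato, and the IPs 176 and 139 in wild type and 95.8 and 105 in ato. The defining eye gene gl, which encodes the photoreceptor factor Glass, stood at 82.6 and 75.6 CPM in the wild-type inputs and 4.27 and 5.15 in the ato inputs. Another marker of this set, ey, stood at 53.1 and 50.7 CPM in the wild-type inputs and 65.3 and 61.3 in the ato inputs.

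Cell cycle and DNA replication genes had median ratios below 0 in all 4 preparations, of -0.59 and -0.75 in wild type and -0.46 and -0.35 in ato. Both ato preparations lay above for 15 of 46 (32.6%) and below for 2, and the median interaction was 0.14 (0.07 to 0.24 over the settings). The mitotic kinase polo had ratios of -0.60 and -0.75 in wild type and -0.17 and -0.12 in ato, and an interaction of 0.53 ± 0.26 (edgeR adjusted p = 0.995). The separase gene thr had 0.70 ± 0.33.

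Glycolysis genes had 5 of 12 (41.7%) above and 0 below, with a median of 0.13 (0.07 to 0.23), over levels that were higher in ato by a median of 0.88 in the inputs and 1.05 in the IPs. Pgi, an early enzyme of the pathway, had 0.43 ± 0.26 (edgeR adjusted p = 1.0). Neuronal cytoskeleton genes had 5 of 20 (25.0%) above and 0 below, with a median of 0.11 (0.08 to 0.30). Cytosolic ribosomal protein genes had a median of -0.25, but only 3 of 87 lay above and 2 below, and the median ranged from -0.63 to 0.15 over the settings. Respiratory chain and ATP synthase genes, with 7 of 72 below and 8 above, had a median of -0.18 that ranged from -0.45 to 0.11. Vacuolar proton ATPase genes (median -0.12) and glutathione S-transferases (-0.13) also lay below all genes in the median, with ranges that crossed 0. Translation factors (median 0.05), proteasome subunits (0.03) and mitochondrial ribosomal proteins (-0.02) stood near all genes.

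The preparations also differed within a genotype. Over the 7239 genes of at least 10 CPM, Pearson's correlation of the log2 ratios across genes was 0.801 between both wild-type preparations and 0.79 between both ato preparations, and it was 0.71 to 0.859 between preparations of different genotype. Genes are not independent replicates, so these are descriptions. Wild-type preparation 1 was closer to ato preparation 1 (0.859) than to wild-type preparation 2.

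The size of enrichment differed by preparation as well. The 200 most enriched genes of wild-type preparation 1 had a median log2 ratio of 1.86 in wild-type preparation 2, 1.52 in ato preparation 1 and 1.25 in ato preparation 2. When the 200 genes were chosen in ato preparation 1, where the choice itself raises the median to 1.75, the median was 1.77 in each wild-type preparation and 1.25 in ato preparation 2. For genes chosen in either genotype, the highly enriched genes thus had lower ratios in ato preparation 2 than in both wild-type preparations. The 200 most depleted genes of ato preparation 1 had medians of -1.60 and -1.12 in the wild-type preparations and -1.31 in ato preparation 2, which showed no such order. This choice of genes was made after the data had been seen and was not tested.

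**Figure D5:**
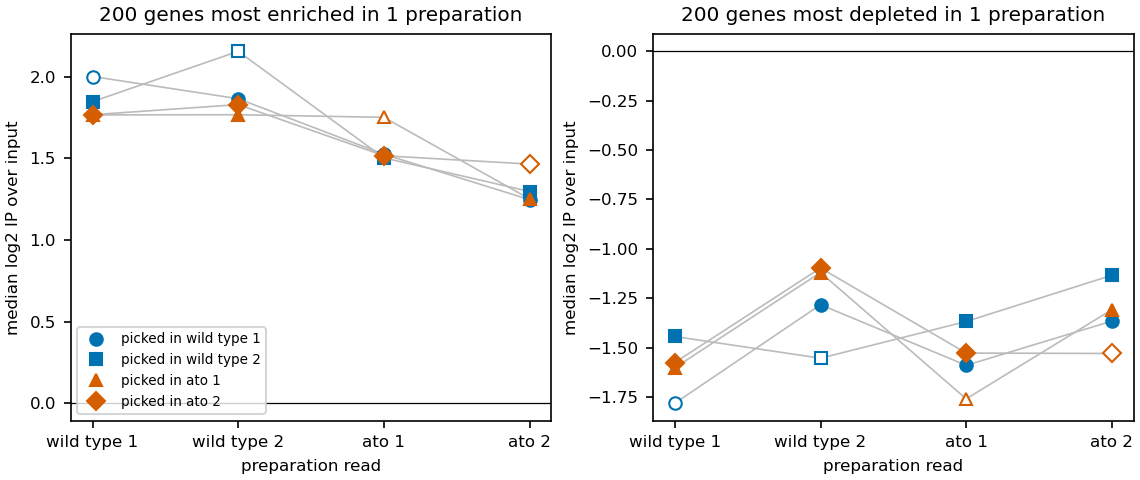
Median log2 IP over input (y axes) in each preparation (x axes) of the 200 genes most enriched (left) or most depleted (right) in one preparation, among genes of at least 10 CPM; each symbol and colour marks the preparation in which the genes were chosen, and open symbols mark the value in that same preparation. Highly enriched genes read lowest in ato preparation 2, while depleted genes show no order by genotype.

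Level and transcript length went with the interaction too. In the lowest of 6 equal bins of mean level (0.339 to 2.52 CPM) the median interaction was -0.47, and in the highest (113 CPM and above) it was 0.02. In the bin of shortest exon length (72 to 971 bases) it was -0.24, against -0.02 in the bin of the longest. Chromosome arms differed little, with medians from -0.09 on chromosome 4 to -0.02 on 2R.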

How the data were processed

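The authors deposited raw counts for each gene in each run, made with TopHat2 2.0.12 and featureCounts 1.4.4 per the submitters' processing notes. The file headers give dm3, exon features and mapping quality of at least 5, without any strand, pair, multiple-mapping or overlap option, so overlapping, antisense and near-identical genes can share reads. Low counts were more often even than odd (19755 entries of 2, 7744 of 3). The deposited exon length served only as a covariate. Coordinates are those deposited, and current names were looked up in an annotation table (249 of 14161 symbols unmatched).

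Summed libraries were filtered with filterByExpr, scaled by TMM and tested in edgeR 4.0.16 (R 4.3.3) by quasi-likelihood. The preparation was a block with 1 IP term per genotype, and the interaction is the ato term minus the wild-type term. This left 2 residual degrees of freedom, and the prior degrees of freedom came out infinite for every gene. Each test therefore used the spread fitted across genes (biological coefficient of variation 0.177), and a gene's own replicate spread did not enter it. P-values were adjusted by the Benjamini-Hochberg method over the 10224 tested genes (threshold 0.05). Single-preparation ratios used a prior count of 2, which draws low genes toward 0. Groups at 0 counts were set at a floor of 3 counts summed over their libraries, which covers counting error of those groups only. The code was tested on simulated data.

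The protocol splits each homogenate into input and IP, which pairs them. Their deviations from group means correlated at 0.096 in wild type and 0.165 in ato across genes. Named genes had an adjusted p below 0.05, at least 10 CPM in 1 group and both ato preparations on 1 side of both wild-type ones (up to 15 per direction). Where under 5 passed, the 10 of smallest p were named; so were the 3 members of smallest p in each list, ato, RpL10Ab and the T4/T5 factors. Members and lists were chosen with earlier results of these data known. Alternatives used DESeq2 1.42.0, limma-voom (limma 3.58.1), other scaling, filters and offsets, 1 run per library and 1 preparation fewer.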

Additional observations from a re-analysis of the deposited data

Results flagged for a closer look

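The effect of genotype on IP enrichment was itself tested, and it differed between wild type and ato for 10 genes, all with lower enrichment in ato by edgeR's quasi-likelihood test with Benjamini-Hochberg adjustment. This tested difference is what singled each of them out. The log2 interaction was -2.01 for CG9192, -1.38 for Mmp1, -1.15 for CG9021, -3.21 for CG7888, -2.25 for CG9657, -1.32 for Tsf1, -1.35 for sda, -2.74 for jp and -1.64 for Phk-3, and the bound for CG6947 was 11.9-fold. For each, both ato preparations lay below both wild-type preparations. The naming rule required this order, and it is read from the same libraries as the interaction.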

How the results depend on the processing

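Over 14 alternatives, all 10 called genes kept a negative interaction, a sign for which they were picked from the same counts. The number of genes called lower, 10, stayed at 10 with DESeq2 size factors, no filter on low counts or offsets for abundance. It was 0 without the replicate block, 0 with library totals only, 1 with the DESeq2 Wald test, 0 with limma-voom, 4 above a mean of 5 CPM, 0 with run 1 of each library and 19 with exon length offsets, which also gave 9 genes called higher. Leaving out 1 preparation gave 0 to 16 genes lower and 0 to 2 higher. The calls for CG6947, CG9657, Phk-3 and sda remained without wild-type preparation 1, those for CG7888, CG9021, CG9192, Tsf1 and jp without wild-type preparation 2, that for CG9192 without ato preparation 1, and none without ato preparation 2. For the choices of test, scaling, filter and offsets the cause was not tested; fewer counts or preparations were used in the others. A fit without a preparation leaves 1 preparation of its genotype, assumed to vary like the others.

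Some named genes changed sign, none of which had passed the test. With exon length offsets His2Av read 0.051, His4r 0.216, RpL10Ab 0.034 and AP-2 0.01; with abundance offsets His4r read 0.01 and SoxN -0.034. AP-2 read 0.022 with DESeq2 size factors and the Wald test and 0.023 with library totals; SoxN read -0.001 above 5 CPM; acj6 read 0.202 and bi 0.011 from run 1. Over the fits that left out a preparation, these genes ranged across 0: HLHm7 -1.141 to 0.336, Egfr -0.046 to 0.917, kkv -0.046 to 0.869, Hsp70Bc -7.234 to 0.666, RpL22 -1.474 to 0.035, RpL41 -1.321 to 0.064, RpS20 -1.061 to 0.057, mRpL33 -1.474 to 0.231, CG1268 -1.177 to 0.118, VhaM9.7-2 -0.933 to 0.009, noe -0.793 to 0.055, His3.3B -0.598 to 0.018, His2Av -0.242 to 0.028, His4r -0.364 to 0.236, RpL10Ab -0.534 to 0.26, AP-2 -0.006 to 0.038, SoxN -0.001 to 0.079 and bi -0.309 to 0.17.

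With 2 preparations per genotype and a median standard error of 0.36, only large changes were detectable. No list member passed the main test, whereas GstD3, Mlp84B, TpnC73F and Nrx-1 passed with exon length offsets. Genes with no count in a group (478) have no fitted error.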

Other observations

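Jonah and digestive serine proteases, gut enzymes, were tested for 8 of 27 listed genes, and 6 of the 8 had a group at 0 counts. They passed the filter through the ato libraries, so no count of directions is given. The chymotrypsin-like gene yip7 had 0 counts in both wild-type inputs together, 4 in the wild-type IPs, 1101 in the ato inputs and 393 in the ato IPs, so that its enrichment was at least 4.52-fold lower in ato (edgeR adjusted p = 0.29). Its wild-type preparation 2 had no count in input or IP.

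Of 17 tested heat shock genes, 6 (35.3%) lay above and 1 (5.9%) below, beside 14.6% and 18.4% of all genes tested. Their median interaction was 0.05. A group at 0 counts was found for 2 of the 17, and the difference in shares was not tested. The mitochondrial chaperone Hsc70-5 had ratios of -0.69 and -0.57 in wild type and -0.10 and -0.33 in ato and an interaction of 0.42 ± 0.27 (edgeR adjusted p = 1.0). Hsp70Ba, a heat-inducible chaperone with near-identical copies, had 0 and 6 counts in the wild-type inputs and IPs and 283 and 219 in ato. With the wild-type inputs at a floor of 3 counts, its ratio was 3.13-fold lower in ato. That value rested on the 6 wild-type IP counts, and the interaction did not pass (edgeR adjusted p = 0.513).

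Salivary glue genes encode secreted proteins that fix the pupa, and the glue genes Sgs5 and Sgs7 had few counts in the ato inputs. Sgs5 had an interaction of 3.73 ± 1.16 (edgeR adjusted p = 0.297). Sgs7 had an interaction of 2.74 ± 1.17 (edgeR adjusted p = 0.484). The ato inputs held 0 and 7 counts of Sgs5 and 2 and 0 of Sgs7. Among 9 tested glue genes, 3 had a group at 0 counts. The median interaction of the 9 was 1.715, and 0.155 with those groups at the floor. One of the 9, ng1, had no count in the wild-type inputs and read in the other direction. Of 30 tested unnamed noncoding genes, 9 lay below and 1 above (median -0.24). CR42746 had ratios of 4.07 and 3.90 in wild type and 0.84 and 1.78 in ato and an interaction of -3.18 ± 1.24 (edgeR adjusted p = 0.674). Small nuclear and nucleolar RNAs, which are not translated, had median ratios of 1.36 and 1.64 in wild type and 1.19 and 1.60 in ato. Of 53 tested, 4 (7.5%) lay above and 8 (15.1%) below, and 3 had a group at 0 counts.

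In the ecdysone response list 5 of 22 lay below and 3 above (median -0.08). Its early gene Eip74EF, an ETS factor, had ratios of 1.90 and 1.90 in wild type and 1.26 and 1.05 in ato, with an interaction of -0.75 ± 0.28 (edgeR adjusted p = 0.635). Of 157 listed cuticle and peritrophic matrix genes 62 were tested, and 8 of these had a group at 0 counts. Among the 62, 17 (27.4%) lay below and 13 (21.0%) above, beside 18.4% and 14.6% of all genes tested. This difference in shares was not tested. The chitinase gene Cht5 had ratios of 1.66 and 0.95 against -1.14 and -0.32 (interaction -2.11 ± 0.69, edgeR adjusted p = 0.427). Of 15 apoptosis genes 4 lay above and 2 below; the death activators rpr (-0.80 ± 0.39) and grim (0.58 ± 0.36) stood on opposite sides, and neither passed (edgeR adjusted p = 0.995 and 1.0).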
